A study of Homo sapiens with 4 samples.

Results

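The Mediator complex and its CDK8 kinase module were examined in RNA recovered with the m6A demethylase ALKBH5 from NOMO-1 cells, an established line of human acute myeloid leukaemia. The genes were taken by symbol, as MED followed by a number with or without a final L, plus CDK8, CDK19 and CCNC. This gave 33 genes of 26830 in the table: 4 long subunits of the kinase module (MED12, MED12L, MED13 and MED13L), the kinases CDK8 and CDK19 with cyclin C (CCNC), and 26 other subunits, called core subunits here. There were 2 Flag-IP libraries, of RNA pulled down with an anti-Flag antibody after UV crosslinking, and 2 input libraries of RNA before the pull-down, numbered 1 and 3 in each group. All 4 came from cells with the genotype ALKBH5 OE, made with a lentivirus for the 3xFlag-tagged ALKBH5 coding sequence, selected with puromycin and sorted for GFP, so the inputs overexpress ALKBH5 as well. A pull-down from untagged cells is not analysed here, and the labels state neither the number of clones nor whether the libraries of a group are separate cultures. All p-values rest on the spread between libraries, which could be purely technical. ALKBH5 itself was at 10.09 and 8.91 TPM in the Flag-IP libraries and 4.62 and 4.91 TPM in the inputs.

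Mediator carries signals from DNA-bound activators to RNA polymerase II. Its head and middle contact the polymerase, its tail is bound by activators, and MED14 is the scaffold that joins these parts. The kinase module docks on the core reversibly through MED13, while MED12 activates CDK8 through cyclin C; MED12L, MED13L and CDK19 are the vertebrate paralogs. ALKBH5 demethylates N6-methyladenosine (m6A) in RNA, a mark often found in the sequence GGACU.

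Levels are in TPM, relative abundances that account for transcript length and sum to 1000000 in each library, so read depth and counting error are unknown. Structural RNAs such as ribosomal RNA took 92.5% and 93.6% of the Flag-IP libraries and 96.8% and 96.3% of the inputs. The typical gene was higher in Flag-IP, with a median ratio of 2.38 over the 6476 genes that averaged 1 TPM or more and were above 0 in input. What set this ratio was not tested. Differences are given on log2(TPM + 1) as deposited and again with each library divided by its median ratio, that is, relative to the typical gene. A further rescaling left structural RNAs out and set each library to the same total, without division by the median ratio. The median difference of all tested genes was 0.24 there. Of 12 monocytic and myeloid leukaemia markers, CTSG was the highest at 52.1 and 46.46 TPM in Flag-IP and 28.41 and 30.46 in input, while CD14 was listed at 0 in all 4 libraries and CSF1R reached 0.03 TPM at most. Of 17 markers of other cell types NKG7, at 21.98 and 23.87 TPM in Flag-IP and 12.02 and 14.6 in input, was the single one above 0.2 TPM in any library.

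MED12 and MED13L, both long subunits of the kinase module, had the largest ratios of Flag-IP to input among the 33 genes, followed by MED23 of the tail and MED13. MED13L was at 18.25 and 15.31 TPM in the Flag-IP libraries, against 1.95 and 2.44 TPM in input, and was the highest of the 33 genes in both Flag-IP libraries. MED12, the activator of CDK8, was at 7.5 and 7.1 TPM in the Flag-IP libraries, against 0.78 and 0.99 TPM in input. MED13, which links the module to core Mediator, was at 6.14 and 3.88 TPM in the Flag-IP libraries, against 0.71 and 0.8 TPM in input. In each of these genes the Flag-IP libraries were well clear of the inputs, with ratios of the group means of 7.64 for MED13L, 8.25 for MED12 and 6.64 for MED13. MED12L was far lower, at 0.36 and 0.22 TPM in the Flag-IP libraries, against 0.04 and 0.06 TPM in input. Exons on the opposite strand from IGSF10 cover 28.8% of the exonic bases of MED12L, and IGSF10 was at 7.28 and 5.11 TPM in the Flag-IP libraries, against 1.69 and 2.1 in input. Libraries were made with a stranded kit, but the strand setting of the counting is not given in the sources used here, so the MED12L values are uncertain.

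**Figure D1:**
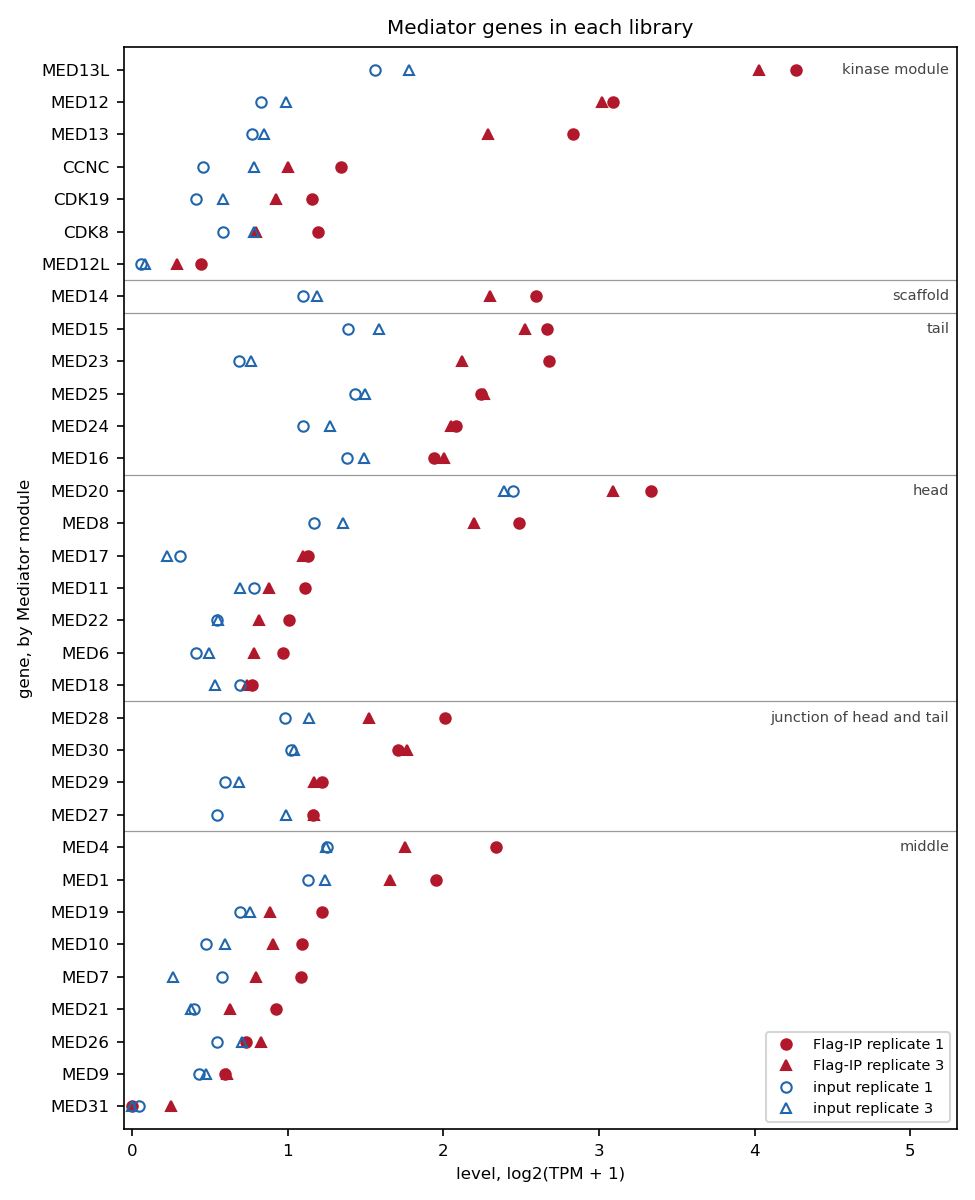
Level of each of the 33 Mediator genes in log2(TPM + 1), grouped by module, with filled red symbols for the Flag-IP libraries and open blue symbols for the inputs (circles for replicate 1, triangles for replicate 3). MED13L stands at 18.25 and 15.31 TPM in Flag-IP, and Flag-IP lies above input for every gene except MED31.

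In limma over all 6487 genes that averaged 1 TPM or more, the difference of MED13L relative to the typical gene was 1.43 ± 0.10 (log2 ± SE, adjusted p = 6.0e-04). MED12 was higher by 1.27 ± 0.11 (limma adjusted p = 0.0011) and MED13 by 0.94 ± 0.12 (limma adjusted p = 0.0032). On the deposited scale, where the median of all tested genes was 0.84, the same genes were at 2.48, 2.14 and 1.75. There limma fitted 1 common variance trend to all genes (infinite prior degrees of freedom), so those p-values may be too small. MED12 and MED13 had input means below 1 TPM and passed the filter on low values through Flag-IP alone; with all genes tested without a filter they were at 1.24 (limma adjusted p = 0.013) and 0.91 (limma adjusted p = 0.022).

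The long subunits are encoded on separate chromosomes. In GENCODE 29 on GRCh38, MED12 spans 71118556 to 71142454 on the plus strand of chromosome X, with 45 exons in its longest transcript. MED13 spans 61942605 to 62065282 on the minus strand of chromosome 17, and MED13L spans 115953872 to 116277719 on the minus strand of chromosome 12. Despite their relation, the paralogs were distinct enough to be counted apart: MED12 and MED12L shared 0 stretches of 31 identical bases in their transcripts with the longest coding sequence, as did MED13 and MED13L, and CDK8 and CDK19.

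To show what the recovered transcripts hold of the m6A core motif, the 60-base coding window with the most GGACT (sense strand only, capitals; T stands for U) is given for the 4 most enriched genes that were tested, and for the tail subunits MED24 and MED16, which were not called relative to the typical gene. The coding sequences are those of GENCODE 29.
MED12: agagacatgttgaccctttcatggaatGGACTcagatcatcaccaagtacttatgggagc
MED13: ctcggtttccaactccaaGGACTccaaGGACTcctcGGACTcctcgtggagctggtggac
MED13L: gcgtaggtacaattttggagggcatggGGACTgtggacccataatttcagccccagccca
MED23: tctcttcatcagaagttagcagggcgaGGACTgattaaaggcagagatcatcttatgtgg
MED24: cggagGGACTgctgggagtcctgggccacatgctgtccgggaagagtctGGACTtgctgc
MED16: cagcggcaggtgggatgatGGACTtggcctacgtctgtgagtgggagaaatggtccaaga
The MED13 window, coding bases 3020 to 3079, holds 3 matches in a repeated stretch, and 0.486% of 5965 tested coding genes have a window with at least 3. The MED24 window holds 2, a number reached by 10.7% of these genes. Neither share is matched for length, and a longer sequence has more windows. MED13 has 6522 coding bases, where these genes have a median of 1467. Of all 60-base coding windows in these genes, 5.88% hold at least 1 match.

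The motif content of the coding sequence did not order the genes by enrichment, and untranslated regions were not searched. MED13L had 9 GGACT matches (1.35 per kilobase of coding sequence), MED13 8 (1.23), MED12 5 (0.766) and MED23 1 (0.243), against 6 in MED24 (1.97) and 3 in MED16 (1.14). MED15 and MED30, which were not called relative to the typical gene either, had 0. The median of the tested coding genes was 0.955 per kilobase, and 76.3% of them had at least 1 match. Over the 33 genes Spearman's rho between motif density and the difference relative to the typical gene was -0.02, as a description over genes that share the same 4 libraries. Methylation itself was not measured, and a match is no methylated site.

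The kinases and their cyclin did not follow the long subunits of their own module. CDK8 was at 1.29 and 0.74 TPM in the Flag-IP libraries, against 0.5 and 0.72 TPM in input. CDK19 was at 1.23 and 0.9 TPM in the Flag-IP libraries, against 0.33 and 0.5 TPM in input. CCNC was at 1.54 and 1 TPM in the Flag-IP libraries, against 0.37 and 0.72 TPM in input. Flag-IP 3 and input 3 nearly met for CDK8, and the ratios of the group means were 1.66 for CDK8, 2.57 for CDK19 and 2.33 for CCNC. None of the 3 reached a mean of 1 TPM. Without a filter, limma placed CDK8 at -0.26 (adjusted p = 0.23), CDK19 at 0.02 (adjusted p = 0.89) and CCNC at -0.03 (adjusted p = 0.91) relative to the typical gene. On the deposited scale without a filter CDK19 was higher (0.54, limma adjusted p = 0.040), while CCNC (0.55, adjusted p = 0.079) and CDK8 (0.31, adjusted p = 0.23) did not pass.

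Ratios between 2 genes within a library do not depend on how the library is scaled. The pairs below were chosen after the values were seen and are given as a description; with 2 libraries in each group an exact permutation test cannot reach a p below 0.333. MED12 stood at 5.81 and 9.6 times CDK8 in Flag-IP, against 1.56 and 1.38 times in input. MED13 stood at 3.99 and 3.88 times CCNC in Flag-IP, against 1.92 and 1.11 times in input. The groups did not overlap in either pair. In 2 pairs of long subunits the groups did overlap, with MED12 at 1.22 and 1.83 times MED13 in Flag-IP, against 1.10 and 1.24 times in input, and MED13L at 2.97 and 3.95 times MED13 in Flag-IP, against 2.75 and 3.05 times in input. In another they did not, with MED12 at 20.8 and 32.3 times its low paralog MED12L in Flag-IP, against 19.5 and 16.5 times in input. MED12L was listed at 0.04 and 0.06 TPM in input, where rounding weighs heavily, so this separation is uncertain.

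**Figure D2:**
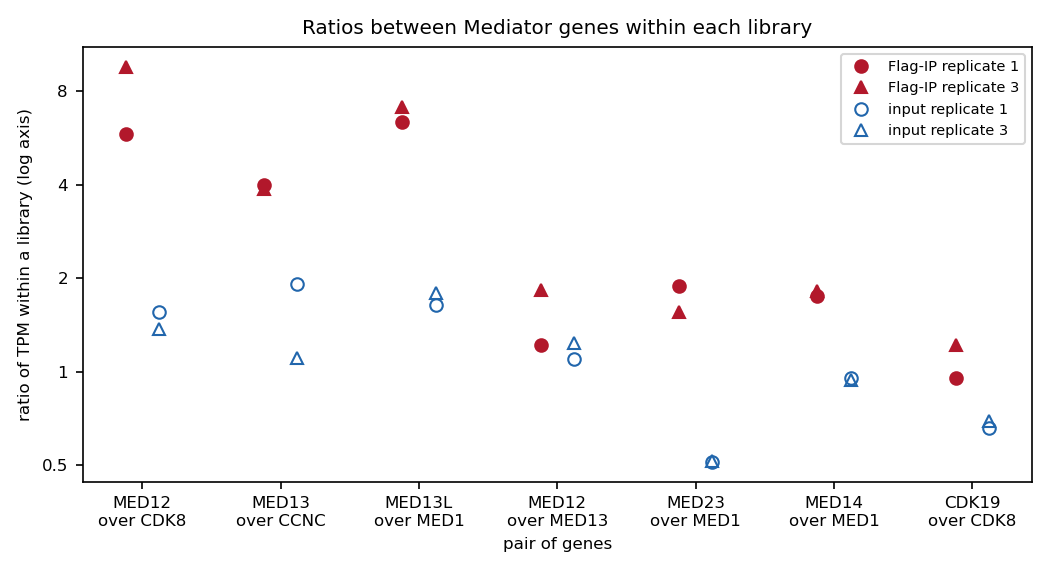
Ratio of the TPM of 2 Mediator genes within each library (log axis), with the Flag-IP libraries in filled red left of the inputs in open blue. MED12 over CDK8 is 5.81 and 9.6 in Flag-IP against 1.56 and 1.38 in input, while MED12 over MED13 overlaps between groups.

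Of the 26 core subunits 12 reached a mean of 1 TPM, and of these MED14 and MED23 were called higher relative to the typical gene and 0 were called lower. MED14, the scaffold, was at 5.05 and 3.92 TPM in the Flag-IP libraries, against 1.14 and 1.28 TPM in input. Its difference was 0.43 ± 0.10 relative to the typical gene (limma adjusted p = 0.017), a call that was lost without any 1 of the 4 libraries (adjusted p = 0.056 to 0.066). With the trend of the difference with transcript length removed MED14 was at 0.14 (adjusted p = 0.32), and with that of coding length at -0.11 (adjusted p = 0.48).

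In the tail, MED23 stood apart from its neighbours. MED23, which is bound by the viral activator E1A and by the transcription factor ELK1, was at 5.4 and 3.35 TPM in the Flag-IP libraries, against 0.61 and 0.7 TPM in input. Both Flag-IP libraries were several times above both inputs, with a ratio of the group means of 6.68 and a difference of 0.90 ± 0.13 relative to the typical gene (limma adjusted p = 0.0037; 0.87 and adjusted p = 0.024 without a filter). MED23 too had an input mean below 1 TPM. MED24, its partner in the tail, was at 3.23 and 3.14 TPM in the Flag-IP libraries, against 1.14 and 1.41 TPM in input (0.04, limma adjusted p = 0.77). MED16 was at 2.83 and 3.01 TPM in the Flag-IP libraries, against 1.6 and 1.81 TPM in input, and was the lowest of the tested Mediator genes relative to the typical gene (-0.33, limma adjusted p = 0.074). It was lower with quantile scaling (-0.40, limma adjusted p = 0.049). MED23 stood at 1.91 and 1.11 times MED16 in Flag-IP, against 0.381 and 0.387 times in input. MED15, bound by the sterol regulator SREBP, was at 5.36 and 4.76 TPM in the Flag-IP libraries, against 1.62 and 2 TPM in input. MED25, a target of the viral activator VP16, was at 3.73 and 3.79 TPM in the Flag-IP libraries, against 1.7 and 1.82 TPM in input. Relative to the typical gene these last subunits were at 0.17 and -0.12 and did not pass (limma adjusted p = 0.23 and 0.46). MED15 passed after rescaling without structural RNAs (0.46, limma adjusted p = 0.029), where the median of all tested genes was 0.24.

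The head held the most abundant Mediator transcript of input. MED20 was at 9.07 and 7.52 TPM in the Flag-IP libraries, against 4.45 and 4.23 TPM in input, where it ranked first of the 33. Its ratio of 1.91 was below the 2.38 of the typical gene, and its difference was -0.29 (limma adjusted p = 0.10). MED20 was thus at 0.497 and 0.491 times MED13L in Flag-IP, against 2.28 and 1.73 times in input, so the 2 genes changed places. MED8 was at 4.61 and 3.59 TPM in the Flag-IP libraries, against 1.25 and 1.56 TPM in input (0.20, limma adjusted p = 0.16). MED8 passed after rescaling without structural RNAs (0.51, limma adjusted p = 0.027), where the median of all tested genes was 0.24. Relative to the typical gene it passed with the transcript length trend removed (0.45, limma adjusted p = 0.021). The same held with the coding length trend removed (0.39, adjusted p = 0.023).

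MED17, a central subunit of the head, had a large ratio at a low level. It was at 1.19 and 1.14 TPM in the Flag-IP libraries, against 0.24 and 0.17 TPM in input, a ratio of 5.68. Without a filter it was at 0.39 relative to the typical gene (limma adjusted p = 0.077), and 0.85 on the deposited scale (limma adjusted p = 0.0098). Of the 31-base stretches in its coding transcript, 84.8% also occur in AP001273.2, an overlapping gene of GENCODE 29, so the level of MED17 is uncertain where that gene was annotated. The other head subunits MED6, MED11, MED18 and MED22 stayed between 0.67 and 1.16 TPM in Flag-IP and between 0.33 and 0.72 TPM in input, with ratios of 1.29 to 2.27. None of them passed without a filter relative to the typical gene, and MED6 alone passed on the deposited scale (0.42, limma adjusted p = 0.047).

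In the middle module MED1, which binds nuclear receptors, was at 2.87 and 2.15 TPM in the Flag-IP libraries, against 1.19 and 1.36 TPM in input (-0.19, limma adjusted p = 0.17). MED4 was at 4.05 and 2.38 TPM in the Flag-IP libraries, against 1.38 and 1.37 TPM in input (-0.06, limma adjusted p = 0.77). MED26, which recruits elongation factors, was at 0.66 and 0.78 TPM in the Flag-IP libraries, against 0.46 and 0.63 TPM in input. Its ratio of 1.32 was, with the 1.29 of MED18, the smallest among the 33. Of the 31-base stretches of MED26, 44.2% occur in AC008764.1, an overlapping gene of the same strand. MED7, MED9, MED10, MED19 and MED21 had ratios between 1.41 and 2.70. MED31 was listed at 0 in Flag-IP 1 and input 3, with 0.19 TPM in Flag-IP 3 and 0.03 in input 1. At the junction of head and tail, MED30 was at 2.27 and 2.41 TPM in the Flag-IP libraries, against 1.03 and 1.06 in input, and MED28 at 3.03 and 1.87 TPM, against 0.98 and 1.2 in input. Relative to the typical gene they were at -0.06 and -0.08 (limma adjusted p = 0.72 and 0.63). MED27 and MED29 had ratios of 1.72 and 2.30, and 45.3% of the 31-base stretches of MED27 also occur in its pseudogene CRSP8P.

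Over the whole group, the Flag-IP libraries were both higher than either input on the deposited scale for 32 of the 33 genes, against 73.4% of the 15678 genes above 0 in any library. Relative to the typical gene this held for 9 genes, the 4 long subunits with MED8, MED14, MED15, MED17 and MED23, against 32.3% of all genes. The opposite held for 10, against 24%: CDK8, MED1, MED9, MED11, MED16, MED18, MED19, MED20, MED22 and MED26. Among the 15 that averaged 1 TPM or more, 15 lay above on the deposited scale (93.1% of such genes), and relative to the typical gene 7 lay above (37% of such genes) and 3 below (37.1%). With the filter, 15 genes were tested: all 15 were called higher on the deposited scale, where 86.6% of all tested genes were, and relative to the typical gene 5 were called higher and 0 lower, where 22.3% of all tested genes were called higher and 18.6% lower. Of the 15, 3 passed the filter through Flag-IP alone (MED12, MED13 and MED23), so these counts are no independent support. Without a filter, all 33 could be tested: limma called 20 higher on the deposited scale (49.1% of all genes) and, relative to the typical gene, 5 higher and 0 lower (8.86% and 5.45% of all genes). The 5 were MED12, MED13, MED13L, MED14 and MED23 in both fits. The summed TPM of the 33 was 91.6 ± 13.4 in Flag-IP and 30.6 ± 2.62 in input (SD, n = 2 each), a ratio of 2.99, and the long kinase-module subunits made up 31.9% and 32.3% of it in Flag-IP, against 12.1% and 13.2% in input.

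**Figure D3:**
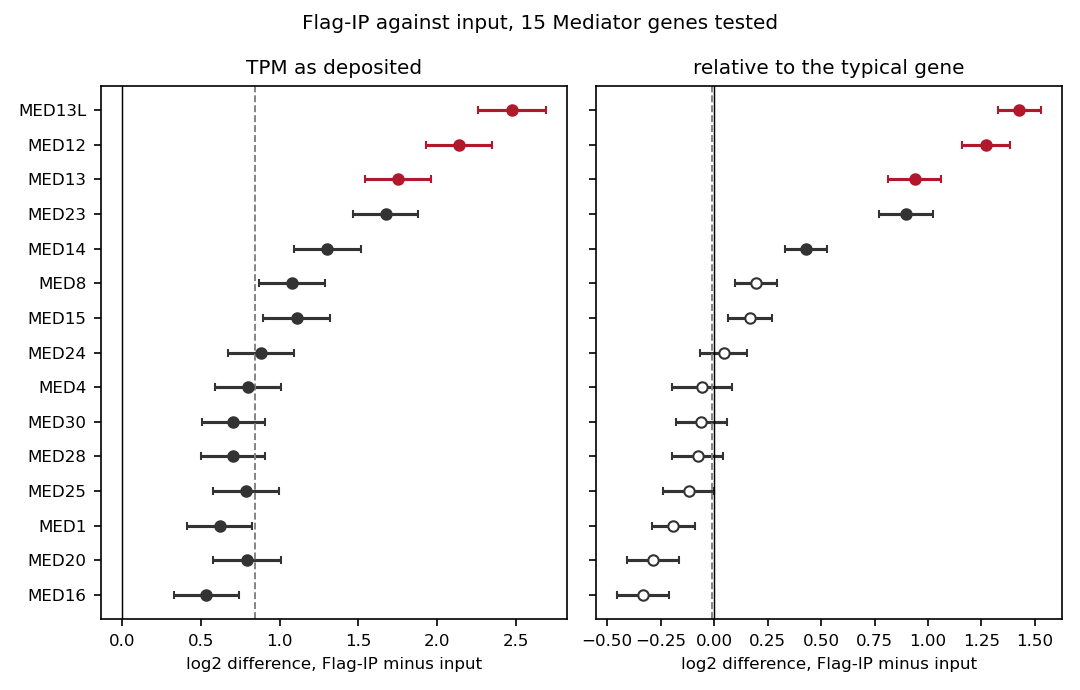
Difference between Flag-IP and input (log2 ± SE from limma) for the 15 Mediator genes that averaged 1 TPM or more, on the deposited scale (left) and relative to the typical gene (right), with red for MED12, MED13 and MED13L, filled symbols for an adjusted p below 0.05 and a dashed line at the median of all tested genes. All 15 are filled on the left, and on the right the filled ones run from MED14 at 0.43 to MED13L at 1.43.

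Set against the core, the long kinase-module subunits had a median ratio of 7.14 (5.80 to 8.25, 4 genes), where the 26 core subunits had 2.24 (1.29 to 6.68). Among tested genes, which left out MED12L, the median difference of the 3 long subunits was above that of the 12 core subunits. The distance was 1.33 relative to the typical gene and 1.34 on the deposited scale, with no test. MED12, MED13 and the core subunit MED23 passed the filter through Flag-IP alone, so this distance is no independent support. Without a filter, with all 4 long and 26 core subunits, it was 1.16 and 1.40. The classes overlapped, since MED23 at 6.68 had a larger ratio than MED13 at 6.64 and MED12L at 5.80. The core median takes in MED31, whose ratio rests on levels near 0.

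The classes also differ in length. The longest coding sequence of MED12, MED12L, MED13 and MED13L has 6435 to 6666 bases, where the core subunits have a median of 777 and the tested coding genes a median of 1467. Across 5965 tested coding genes, the difference relative to the typical gene went with coding length with a Spearman's rho of 0.59, where the 33 Mediator genes without a filter had a rho of 0.47, the 26 core subunits 0.23 and the 15 tested Mediator genes 0.62. Genes are not replicates, these share 4 libraries, and 3 of the 15 passed the filter through Flag-IP alone. Of 223 tested genes with a coding length of at least 6000 bases, 80.7% were called higher relative to the typical gene, with a median difference of 0.79. On the deposited scale 98.7% were. Among the 223, 19.7% had a larger difference than MED13L, 23.8% a larger one than MED12 and 41.3% a larger one than MED13. The 5965 and the 223 genes passed the same filter, which genes low in input could pass through Flag-IP alone.

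With the trend with coding length removed, MED13L (0.63, limma adjusted p = 0.0020), MED12 (0.49, adjusted p = 0.011) and MED23 (0.39, adjusted p = 0.034) were still called higher, while MED13 was at 0.16 (adjusted p = 0.34). The distance between the classes was then 0.51, in place of 1.33. With the trend with transcript length removed MED13 was called (0.56, limma adjusted p = 0.017) and the distance was 0.94.

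Core subunits of like coding length differed from each other. MED1, MED14 and MED23 have coding sequences of 4743, 4362 and 4122 bases, and their ratios were 1.97, 3.71 and 6.68. MED23 stood at 1.88 and 1.56 times MED1 in Flag-IP, against 0.513 and 0.515 times in input, and MED14 at 1.76 and 1.82 times MED1 in Flag-IP, against 0.958 and 0.941 times in input. The groups did not overlap in either pair. With the trend with coding length removed MED1 was called lower relative to the typical gene (-0.77, limma adjusted p = 5.8e-04), as was MED16 (-0.60, adjusted p = 0.0050). Transcript and coding length parted in MED28, whose longest transcript has 10868 bases around a coding sequence of 534: its ratio was 2.25. The G and C content of the coding sequence went the other way from the difference, with a rho of -0.46 over the 33 genes without a filter and -0.54 over the 26 core subunits, against -0.15 over the tested coding genes.

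**Figure D4:**
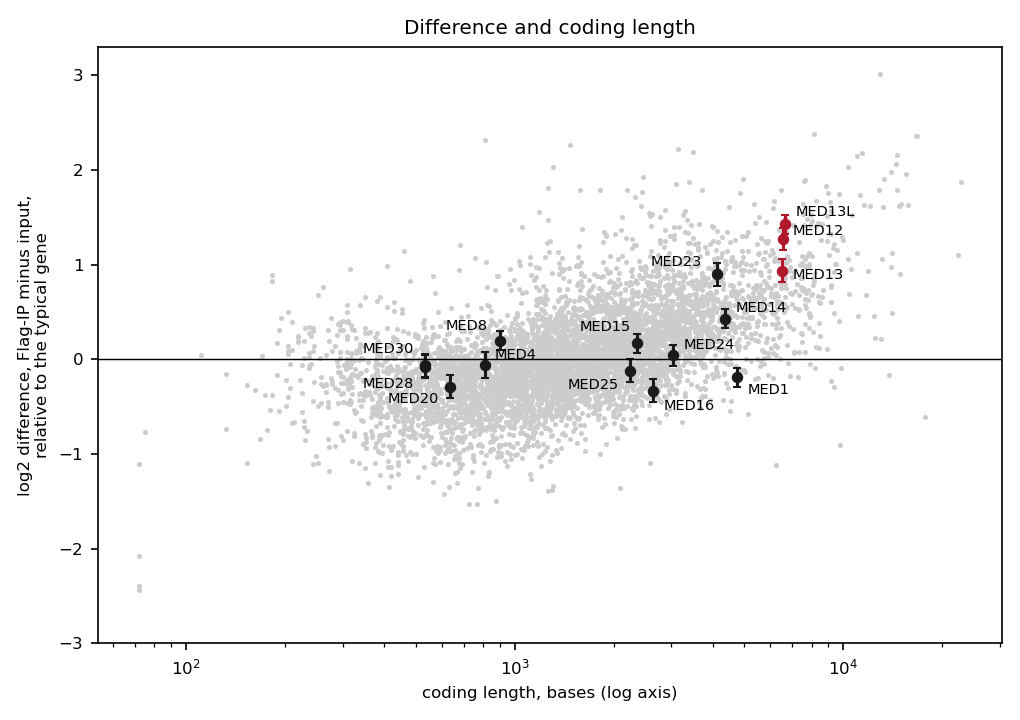
Difference between Flag-IP and input relative to the typical gene (log2) against coding length in bases (log axis) for the tested coding genes (grey) and the tested Mediator genes with their SE (red for MED12, MED13 and MED13L, black for core subunits). MED23 at 0.90 lies above MED14 at 0.43 and MED1 at -0.19, which have similar coding lengths.

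The machinery that works with Mediator was measured beside it in 65 genes of 6 lists, of which 50 were tested; relative to the typical gene 13 were higher and 6 lower, where 22.3% of all tested genes were higher and 18.6% lower, and on the deposited scale 46 were higher. These counts depended on the libraries and the processing. Relative to the typical gene, fewer were called in either direction with any 1 library left out, and fewer of all tested genes were called then too. Without a filter 6 of 64 were higher, where 8.86% of all genes were. After rescaling without structural RNAs 25 of 50 were higher, where 2205 of 6282 genes were. Some genes are in more than 1 list. Of 16 tested general transcription factors of RNA polymerase II, which assemble at the promoter, 3 were higher, 4 lower and 9 did not pass relative to the typical gene (median -0.18), and 12 were higher as deposited. TAF1, the largest subunit of TFIID, was at 11.68 and 9.1 TPM in the Flag-IP libraries, against 1.72 and 1.73 TPM in input (1.06 ± 0.11, limma adjusted p = 0.0015). GTF2F1, of TFIIF, was at 6.28 and 5.58 TPM in the Flag-IP libraries, against 4.05 and 6.41 TPM in input, and was lower relative to the typical gene (-0.89 ± 0.15, limma adjusted p = 0.0070), while the groups overlapped as deposited. TAF8, the most abundant of the list, was higher (0.37, limma adjusted p = 0.027).

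Of 7 tested subunits of TFIIH, 1 was higher and 0 lower (median 0.00). ERCC3, its translocase, was at 6.47 and 4.61 TPM in the Flag-IP libraries, against 1.32 and 1.44 TPM in input (0.53, limma adjusted p = 0.012). ERCC2, the other helicase, was at 0.00 and CDK7, the kinase of TFIIH, at -0.31 (limma adjusted p = 0.99 and 0.16). Of 9 tested elongation factors linked to MED26 and the kinase module, 3 were higher and 0 lower (median 0.31), among them MLLT1, of the super elongation complex (0.49, limma adjusted p = 0.021), and EAF2, a partner of the ELL factors (0.55, adjusted p = 0.019). SUPT5H, a subunit of the elongation factor DSIF, was at 10.16 and 9.33 TPM in the Flag-IP libraries, against 2.77 and 3.55 TPM in input (0.31, limma adjusted p = 0.068). Without a filter none of the 15 genes of this list passed relative to the typical gene.

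Of 10 subunits and loaders of cohesin, which has been found together with Mediator at enhancers and promoters, 1 was higher and 2 lower (median 0.17); without a filter 0 were higher and 2 lower. The lower ones were SMC1A (-0.41, limma adjusted p = 0.024) and RAD21, at 14.38 and 10.83 TPM in the Flag-IP libraries, against 6.68 and 7.37 TPM in input (-0.39, adjusted p = 0.027); SMC3 was at -0.31 (adjusted p = 0.093). Of 10 other transcriptional cyclin-dependent kinases and cyclins, 5 were higher and 0 lower (median 0.27); without a filter 2 of 13 were higher. CCNL2, a cyclin L linked to splicing, was at 4.28 and 4 TPM in the Flag-IP libraries, against 0.36 and 0.6 TPM in input (1.09 ± 0.12, limma adjusted p = 0.0019), followed by CCNL1 (0.73, adjusted p = 0.021), CDK12 (0.46, adjusted p = 0.013) and CDK11B (0.32, adjusted p = 0.042), which has the near-identical copy CDK11A. FBXW7, the ubiquitin ligase subunit that recognises MED13, was at 3.63 and 2.57 TPM in the Flag-IP libraries, against 0.6 and 0.74 TPM in input (0.55 ± 0.10, limma adjusted p = 0.0093). On the deposited scale all tested genes of these last 4 lists were higher, and so was FBXW7, where 86.6% of all tested genes were.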

How the data were processed

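Per the submitters' processing notes, the tools were STAR and RSEM and the build GRCh38; their versions and the annotation used are not stated there. The authors deposited TPM per gene symbol, and each column sums to 1000000. Genes that averaged 1 TPM or more entered limma 3.58.1 (R 4.3.3) as log2(TPM + 1) (eBayes with trend, two-sided, Benjamini-Hochberg over all genes tested, adjusted p below 0.05), as deposited and after division by each library's median ratio to the geometric mean (1.73 and 1.40 in Flag-IP, 0.600 and 0.698 in input). The test was checked on simulated data. Lengths and sequences came from GENCODE 29, which matched all 33 genes. Length trends were removed by loess (span 0.5). The replicate numbers are not stated to mark a shared culture, and no block was used. Every Mediator gene could be named, and from each other list the 2 most abundant tested genes and the 2 whose difference was largest; 1 gene under this rule is not reported here. The genes and lists were chosen with earlier results of these data known.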

Additional observations from a re-analysis of the deposited data

How the results depend on the processing

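With a filter at a mean of 5 TPM, 2 Mediator genes were left, of which 2 were higher on the deposited scale and 1 (MED13L) relative to the typical gene. Of all 1539 genes in those fits, 1272 and 392 were higher. Lower relative to the typical gene were 1 with quantile scaling (MED16), 2 with the length trend removed (MED1 and MED28) and 2 with the coding length trend removed (MED1 and MED16), in place of 0. Over all genes these fits called 1223 of 6487, 926 of 6250 and 1163 of 5965 lower. The coding length trend and the crossed block were added after seeing the data. With the filter at 5 TPM only MED13L and MED20 were left to compare, 1 gene of each class. MED13L lay above MED20 by 1.68 as deposited and by 1.71 relative to the typical gene. The distance of the long kinase-module subunits above the core was 1.01 as deposited and 0.94 relative to the typical gene with the length trend removed. It was 0.42 and 0.51 with the coding length trend removed, and 1.78 and 1.74 with a pseudocount of 0.1. With no filter it was 1.16 relative to the typical gene. After rescaling without structural RNAs, which has no division by the median ratio, it was 1.76. With 1 library left out it ran from 1.24 to 1.43 as deposited and from 1.15 to 1.41 relative to the typical gene. MED14 turned to -0.11 with the coding length trend removed. The cause of these changes was not tested. On the deposited scale MED1, MED16 and MED28 lost the call without input 1, and MED16 also without input 3. Relative to the typical gene MED14 lost its call without each of the 4 libraries. The deviations of same-numbered libraries from their group means had a weak negative correlation over genes (-0.17 as deposited, -0.19 relative to the typical gene). With the replicate block 14 Mediator genes were higher as deposited (MED16 lost its call with a limma adjusted p of 0.084), while 5 were called relative to the typical gene. Of all 6487 genes 4789 and 1286 were higher there. With the crossed replicate block 15 and 5 Mediator genes were higher, where 5908 and 1409 of all genes were. MED12, MED13L and MED23 kept their direction and call under every alternative in which they were tested. These fits draw on the same 4 libraries, and MED12 and MED23 passed the main filter through Flag-IP alone, so this is no independent support. Of the 65 genes that work with Mediator, 10 averaged 5 TPM or more. After division by the median ratio 5 of these 10 were higher and 1 was lower, where 392 and 355 of all 1539 genes were. As deposited 9 of the 10 were higher, where 1272 of the 1539 were. With the coding length trend removed after that division 10 of 50 were lower, where 1163 of 5965 genes were. Depth is unknown, which limits genes near 0 TPM most.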

Other observations

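Rows whose symbols begin with MED but lie outside the complex were near 0. MED14OS, antisense to the scaffold gene, was at 0.43 and 0.04 TPM in the Flag-IP libraries, against 0.08 and 0 TPM in input. MED4-AS1 was listed at 0 and 0.36 TPM in the Flag-IP libraries, against 0.35 and 0 in input, and the pseudogene MED15P9 at 0 in all libraries. CDK19 stood at 0.954 and 1.22 times CDK8 in Flag-IP, against 0.66 and 0.694 times in input, so CDK8 was the more abundant of the paired kinases in both inputs and not in Flag-IP 3.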
